A study of Mus musculus with 24 samples.

Results

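The iron homeostasis genes described here are the hepcidin genes Hamp and Hamp2, the receptors and sensors Tfr2, Tfrc and Hfe, the plasma carrier Trf, the ferritin genes Fth1 and Ftl1, and the transporters Slc40a1 and Slc11a2. They were taken by symbol, and all 10 were present among the 27179 genes of a table of H3K27Ac, histone H3 acetylated at lysine 27, a mark of active promoters and enhancers. The mark was measured by chromatin immunoprecipitation and sequencing in mouse liver, kidney, heart and brain. Tissue came as FFPE blocks, fixed in 10% formalin before paraffin embedding, or as Frozen tissue, crosslinked in 1% formaldehyde for 30 min after coring. FFPE tissue was also cleared of paraffin and extracted at 95 °C for 20 min, a step not listed for Frozen tissue. The labels list 2 H3K27Ac samples per organ and preservation, 16 in all, whereas the table has 1 column for each of these 8 groups. Every value below is therefore treated as 1 library and no single value has a replicate error. Strain, age, sex and the animal behind a column are not given in the labels, and no input library was analysed here.

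Mammals have no regulated route of iron excretion, so the entry of iron into plasma is the controlled step. Hepatocytes secrete hepcidin, the product of Hamp, which removes the cellular iron exporter ferroportin (Slc40a1) from the cell surface. Plasma iron is carried by transferrin (Trf), also a product of hepatocytes, and enters cells through transferrin receptor 1 (Tfrc). Tfr2 and Hfe take part in the sensing of iron by hepatocytes, which acts on Hamp together with bone morphogenetic protein (BMP) signalling, and iron within cells is stored in ferritin.

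RefSeq promoter windows (GRCm38.p6) were at hand for 7 of the 10 genes. The upstream parts of 3 windows are shown here, 250 bases that end just before the start used for the window, written 5′ to 3′ on the strand of the gene. Hamp and Hamp2 are shown because they are near copies that carried very different amounts of the mark, and Tfr2 because it was among the genes highest in liver. The Hamp bases lie at chr7:30944030-30944279 and the Hamp2 bases at chr7:30924182-30924431, both on the minus strand, and the Tfr2 bases, from the most upstream of its 3 windows, at chr5:137569590-137569839 on the plus strand. The start of this Tfr2 window lies within the gene as annotated, so its last bases fall inside the gene span given below. Capitals mark matches to the motifs named after the sequences.
Hamp: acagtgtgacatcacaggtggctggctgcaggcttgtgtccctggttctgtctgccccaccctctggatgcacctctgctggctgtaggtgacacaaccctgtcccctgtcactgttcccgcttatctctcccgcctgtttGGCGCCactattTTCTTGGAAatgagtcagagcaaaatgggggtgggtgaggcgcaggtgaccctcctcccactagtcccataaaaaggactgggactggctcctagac
Hamp2: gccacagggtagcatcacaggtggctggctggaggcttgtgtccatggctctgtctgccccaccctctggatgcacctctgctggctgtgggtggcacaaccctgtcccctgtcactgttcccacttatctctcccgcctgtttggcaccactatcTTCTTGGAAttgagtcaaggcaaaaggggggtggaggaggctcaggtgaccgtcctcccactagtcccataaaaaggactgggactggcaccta
Tfr2: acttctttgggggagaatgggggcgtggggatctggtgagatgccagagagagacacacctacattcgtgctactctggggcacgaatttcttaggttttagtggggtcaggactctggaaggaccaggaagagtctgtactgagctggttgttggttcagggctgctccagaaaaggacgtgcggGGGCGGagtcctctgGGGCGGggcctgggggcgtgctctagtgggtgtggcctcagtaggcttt

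The Hamp and Hamp2 bases aligned over 247 positions with no internal gap, and 227 of them were identical, or 91.9%. Both hold TTCTTGGAA, a match to the STAT motif TTCNNNGAA, which 7.02% of all 32851 windows hold on either strand. Hamp also holds GGCGCC, the core of the BMP-responsive element known from the hepcidin promoter, 109 bases before the start, and 9.59% of all windows hold these letters. Hamp2 differs there by G145A, counted from 1 at the 5′ end of the Hamp bases shown, and holds no GGCGCC. Tfr2 holds the GC box GGGCGG at 2 places, which 32.7% of windows hold. The E box CACGTG bound by USF factors, the HNF4 motif CAAAGTCCA, the antioxidant response element TGACNNNGC, CCAAT and the TATA box TATAAA were also searched on both strands. None matched in the bases shown, and no matches overlapped. A match of letters is a description and not evidence of binding.

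Total counts were 4404789 to 6164562 per library, and values are log2 CPM, the count scaled by an effective library size that the authors set. By summed CPM, hepatocyte, neuron, cardiomyocyte and proximal tubule markers were highest in liver, brain, heart and kidney. Single genes could differ, as the proximal tubule marker Cubn was at 7.01 in heart FFPE against 6.80 and 6.76 in kidney. Hepatocyte markers, 7 genes, summed to 892 CPM in liver FFPE and 1107 CPM in liver Frozen, against 81.2 to 182.9 CPM in the other 6 libraries, and no marker of any list was at 0 counts in any library. The part of these markers in the results below was not tested. In whole organs the share of a cell type and the acetylation per cell cannot be told apart. Differences between organs were tested with limma over both preservations, as each organ minus the mean of the other 3 and as pairs of organs, with Benjamini-Hochberg adjusted p under 0.05 over all 26944 genes tested as the threshold. Because the labels do not tie columns to animals, these p-values do not measure a spread among animals. Organ and preservation were fitted as additive terms to 8 libraries, so the FFPE and Frozen libraries of an organ served as its replicates. The residual, with 3 degrees of freedom, is the disagreement between organs in their FFPE to Frozen difference, moderated toward a trend over all genes. That the terms add was not tested, and the FFPE to Frozen ratio of Trf was 1.67 in heart and 0.592 in liver.

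**Figure D1:**
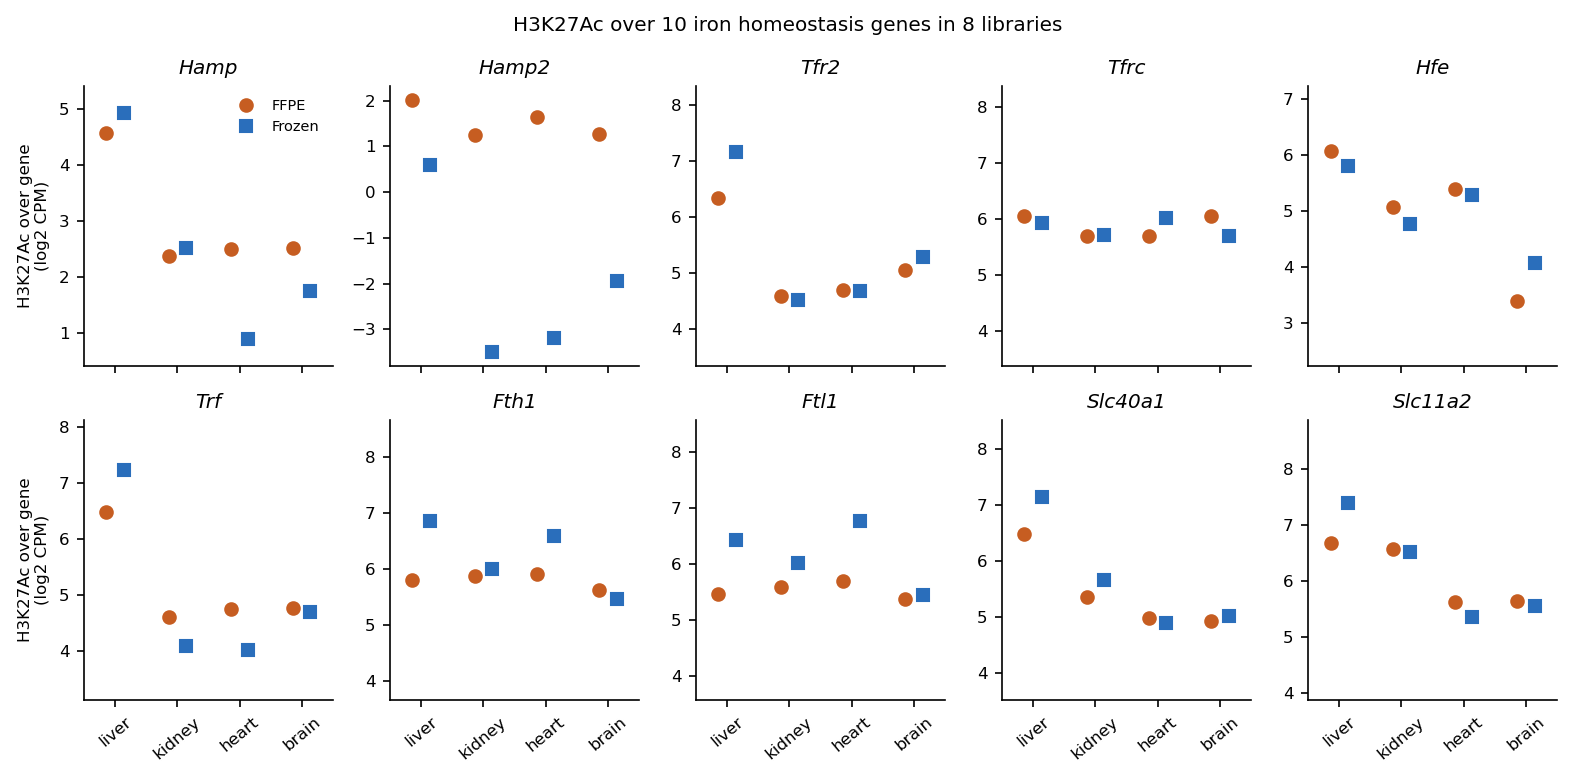
H3K27Ac over each of the 10 genes (y axis, log2 CPM; panels differ in range) in liver, kidney, heart and brain (x axis), with FFPE libraries as circles and Frozen libraries as squares. Hamp, Tfr2, Trf and Slc40a1 stand apart in both liver libraries, and Hamp2 is separated by preservation, with every FFPE library at 1.25 or above and every Frozen library at 0.59 or below.

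Hamp, which encodes the hormone hepcidin, was highest in liver, and it had the largest liver difference of the 10 genes. It lies on chromosome 7 from 30942368 to 30944029 (GRCm38). It stood at 4.58 log2 CPM in liver FFPE and 4.93 in liver Frozen, from 109 and 172 counts. The other values were 2.38 in kidney FFPE, 2.52 in kidney Frozen, 2.51 in heart FFPE, 0.90 in heart Frozen, 2.52 in brain FFPE and 1.76 in brain Frozen, from 8 to 32 counts each. Both liver libraries thus lay above all 6 others. The liver difference was 2.66 ± 0.40 (log2, SE), a 6.31-fold difference, with limma adjusted p = 5.17e-06. Liver also passed the test against kidney, heart and brain one by one, while kidney, brain and heart, in that order of means, did not differ from each other (adjusted p of 0.394 to 0.811). The liver to kidney difference of 2.30 lost its call without kidney FFPE (1.89, adjusted p = 0.0821) and without liver Frozen (1.76, adjusted p = 0.133).

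Hamp2, the second hepcidin gene of the mouse, had few counts in any organ and was set apart by preservation. It lies on chromosome 7 from 30922372 to 30924181, with 18186 bases between it and Hamp. Counts were 18 in liver FFPE, 12 in kidney FFPE, 13 in heart FFPE and 11 in brain FFPE, against 8 in liver Frozen, 0 in kidney Frozen, 0 in heart Frozen and 1 in brain Frozen. Every FFPE library held more counts than every Frozen library, 54 against 9 in sum, a separation that 3.07% of all genes showed. The FFPE minus Frozen difference passed the test, with limma adjusted p = 9.75e-04, where 2.0% of all genes were called higher. As 2 Frozen libraries were at 0, the size is given against a floor of 3 counts in the Frozen library, 4.29-fold in kidney FFPE and 4.59-fold in heart FFPE. These values take the FFPE counts as exact and are not lower bounds. The exact 95% counting intervals there begin lower, at 2.98 and 3.23. The ratio was 2.79 in liver (1.15 to 7.41, exact 95% counting interval) and 13.2 in brain (1.92 to 569). Among the 1779 tested genes with a mean under 10 counts per library, 80 were called higher in FFPE and 2 lower, so Hamp2 belongs to a low-count class in which nearly all calls had this direction. The liver difference of Hamp2 did not pass (2.05 ± 0.79, adjusted p = 0.0628), although the highest FFPE and the highest Frozen value were both in liver. Hamp and Hamp2 are similar copies, the sources used here do not say how reads with several positions were handled, and their single values are uncertain to that extent.

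Tfr2, a transferrin receptor of hepatocytes and erythroid precursors that takes part in iron sensing, was higher in liver than in each other organ. The gene lies on chromosome 5 from 137569822 to 137588081. Its values were 6.34 log2 CPM in liver FFPE and 7.16 in liver Frozen, against 4.57 and 4.51 in kidney, 4.68 and 4.68 in heart, and 5.05 and 5.27 in brain, FFPE then Frozen. The liver difference was 1.95 ± 0.23 (log2, SE), or 3.88-fold, with limma adjusted p = 3.36e-08. Brain came next in the order of means and lay above all heart and kidney libraries, but its differences from heart and kidney did not pass the test (adjusted p of 0.216 and 0.171).

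Hfe, a protein related to class I histocompatibility molecules that binds transferrin receptor 1, differed from Tfr2 in being lowest in brain. It lies on chromosome 13 from 23702034 to 23710854. It stood at 3.39 log2 CPM in brain FFPE and 4.06 in brain Frozen, against 6.06 and 5.80 in liver, 5.06 and 4.75 in kidney, and 5.39 and 5.28 in heart, FFPE then Frozen. Brain lay below all 6 other libraries and liver above all 6. Hfe fell by 1.66 ± 0.24 in brain against the other organs (log2, SE; limma adjusted p = 2.93e-06) and was higher by 1.27 ± 0.24 in liver (adjusted p = 1.13e-04). Liver and heart, neighbours in the order, were not separated (adjusted p = 0.191), nor were kidney and heart (adjusted p = 0.409). The liver to kidney difference of 1.02 passed with all libraries and missed the threshold without any 1 of the 4 libraries of these organs (0.82 to 1.23). Kidney against brain, 1.18, missed it without brain FFPE (0.73) or kidney FFPE (0.98).

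Tfrc, the receptor through which most cells take up transferrin iron, was the least variable of the 10 genes. The gene spans chromosome 16 from 32608896 to 32632794. Its 8 values ran from 5.70 log2 CPM in kidney FFPE to 6.06 in liver FFPE. Liver lay above both kidney libraries, which did not pass the test (0.28 ± 0.26, adjusted p = 0.576), and the other organs overlapped. No organ contrast and no pair of organs passed the test, and the F test for any organ difference gave a limma adjusted p = 0.814. The liver difference was 0.18 ± 0.21 (log2, SE), which does not show that the organs were equal. Erythroid markers, 6 genes measured, summed to 119.7 and 174.3 CPM in liver FFPE and Frozen, against 74.8 to 114.1 CPM elsewhere.

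Trf, the gene of transferrin, gave the smallest p-value of the 10 genes in the liver contrast. The gene spans chromosome 9 from 103208876 to 103230286. It stood at 6.47 log2 CPM in liver FFPE and 7.22 in liver Frozen, from 404 and 846 counts. In kidney it stood at 4.60 and 4.08, in heart at 4.75 and 4.01, and in brain at 4.76 and 4.69, FFPE then Frozen. Liver was thus alone at the top, and the other organs lay between 4.01 and 4.76. The liver difference was 2.37 ± 0.25 (log2, SE), or 5.15-fold, with limma adjusted p = 5.17e-09, and brain, heart and kidney, in that order of means, did not differ in pairs (adjusted p of 0.444 to 0.959). Trf is also known as a gene of oligodendrocytes and choroid plexus in rodent brain. Oligodendrocyte markers, 6 genes, summed to 258.8 and 256.2 CPM in brain FFPE and Frozen, against 109 to 158.5 CPM elsewhere. Choroid plexus markers, 5 genes, summed to 108 and 95.97 CPM in brain FFPE and Frozen, against 80.85 to 206.6 CPM elsewhere. The sum cannot show whether choroid plexus signal was high in brain, as Ttr is also among the hepatocyte markers and was highest in liver. Kl and Folr1 were highest in kidney, Clic6 overlapped between brain and kidney, and Otx2 was highest in brain. Trf in brain did not pass the test against heart or kidney.

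The ferritin genes differed little between organs. Fth1, the heavy chain with ferroxidase activity, lies on chromosome 19 from 9980600 to 9985111, and Ftl1, the light chain, on chromosome 7 from 45457944 to 45459886. Fth1 values were 5.80 and 6.86 log2 CPM in liver, 5.88 and 5.99 in kidney, 5.91 and 6.58 in heart, and 5.63 and 5.45 in brain, FFPE then Frozen. Ftl1 values were 5.47 and 6.44 in liver, 5.59 and 6.01 in kidney, 5.69 and 6.77 in heart, and 5.38 and 5.44 in brain. For both genes the brain libraries lay below all others, and the high values were those of Frozen liver and Frozen heart. Fth1 fell by 0.63 ± 0.22 in brain against the other organs (log2, SE; limma adjusted p = 0.0386), and without brain Frozen this was -0.23 (adjusted p = 0.775). Quantile normalization (-0.41, adjusted p = 0.101) and an equal median and spread (-0.46, adjusted p = 0.0882) also ended the call. It also missed the threshold without heart Frozen (-0.57), kidney FFPE (-0.56) or liver Frozen (-0.49). Ftl1 in brain stood at -0.59 ± 0.22 with adjusted p = 0.0505, and the F test passed for neither gene (adjusted p = 0.0730 for Fth1 and 0.0834 for Ftl1). Ferritin genes have processed copies in the mouse genome, so reads shared with them could affect these values.

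The transporters were both highest in liver, with kidney next. Slc40a1 (ferroportin), the exporter on which hepcidin acts, lies on chromosome 1 from 45908070 to 45926532. It stood at 6.48 log2 CPM in liver FFPE and 7.15 in liver Frozen, against 5.37 and 5.67 in kidney, 4.99 and 4.89 in heart, and 4.93 and 5.01 in brain, FFPE then Frozen. The liver difference was 1.67 ± 0.22 (log2, SE), or 3.18-fold, with limma adjusted p = 2.78e-07. Kidney lay above all heart and brain libraries without passing the test against either (adjusted p of 0.181 and 0.222). The liver to kidney difference of 1.29 lost its call without liver Frozen (1.01, adjusted p = 0.0707). Macrophages, which recycle iron from red cells, are known to use ferroportin strongly. Macrophage markers, 7 genes, summed to 185.5 and 147.8 CPM in liver FFPE and Frozen and to 139.7 to 169.6 CPM in the other libraries. Of these only Clec4f had both liver libraries above all others, at 4.78 and 4.83 log2 CPM against 3.22 to 3.90. Csf1r was highest in kidney, and Marco was lowest in liver FFPE. The part of these markers in the result was not tested.

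Slc11a2 encodes DMT1, which carries ferrous iron across the gut epithelium and out of endosomes, and it was high in kidney as well as in liver. On chromosome 15 it spans 100387898 to 100424209, and its start overlaps the non-coding gene Gm5475. Its values were 6.67 and 7.40 log2 CPM in liver, 6.57 and 6.52 in kidney, 5.62 and 5.35 in heart, and 5.65 and 5.55 in brain, FFPE then Frozen. Liver and kidney together lay above heart and brain, with no overlap. Kidney was higher than heart by 1.06 ± 0.26 and higher than brain by 0.94 ± 0.26 (log2, SE; limma adjusted p = 0.00668 and 0.0142). Liver and kidney were not separated (0.49 ± 0.26, adjusted p = 0.270), and neither were heart and brain (adjusted p = 0.794). The kidney to heart call was lost without kidney FFPE, kidney Frozen or heart Frozen (0.97, 1.14 and 0.83), and the kidney to brain call without kidney FFPE, kidney Frozen or brain Frozen (0.86, 1.03 and 0.82). Gm5475 had its highest values, 5.45 and 5.21, in kidney FFPE and Frozen, with 4.50 to 4.96 elsewhere. The liver difference of Slc11a2 against the other organs was 1.16 ± 0.21 (adjusted p = 1.03e-04), and 0.73 without liver Frozen (adjusted p = 0.110).

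**Figure D2:**
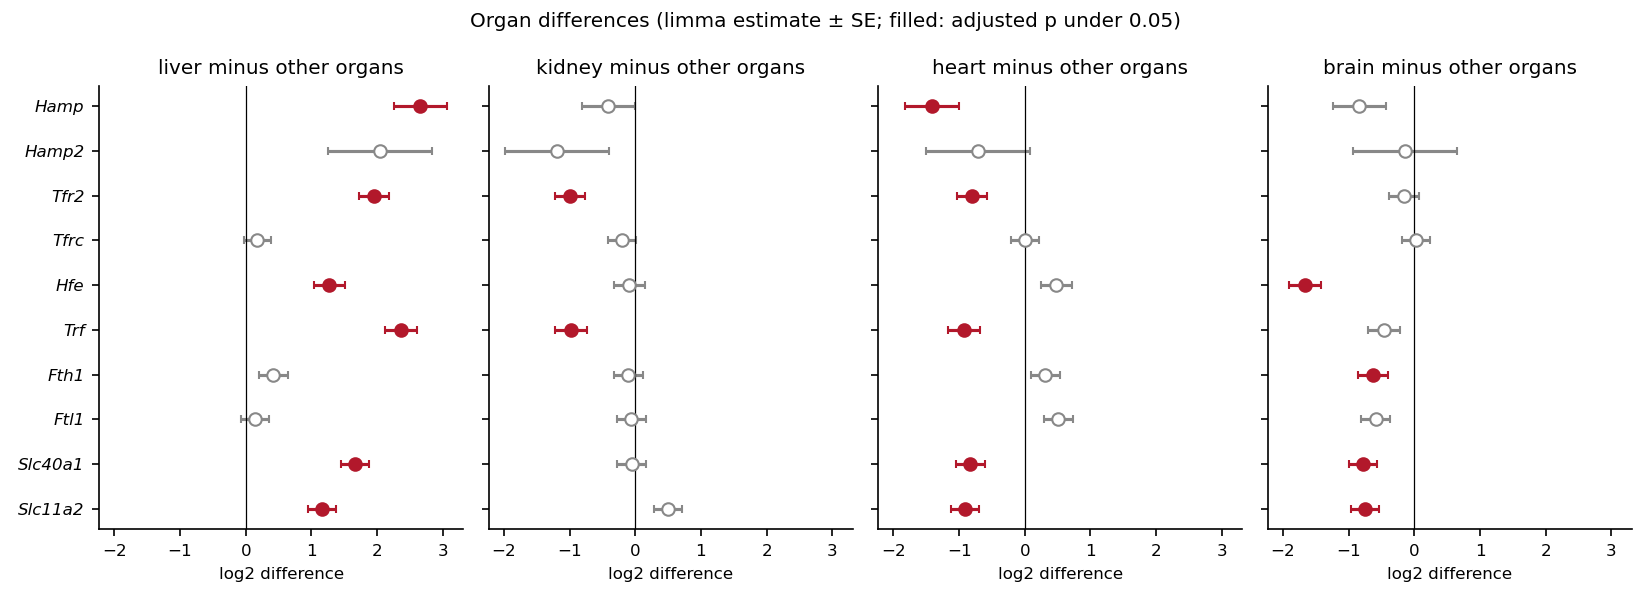
Difference of each organ from the mean of the other 3 organs (x axis, log2) for the 10 genes, as limma estimates with SE, filled where adjusted p is under 0.05. In liver 6 genes are called and all lie to the right of 0, and in kidney, heart and brain every called gene lies to the left.

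In liver 6 of the 10 genes passed the test, all upward, where 11.2% of all genes were called higher in liver. The 6 are Hamp, Tfr2, Hfe, Trf, Slc40a1 and Slc11a2, whose liver libraries also lay above all others without overlap, as 9.60% of all genes did. The median liver difference of the 10 genes was 1.47 (log2), against -0.06 over all genes tested. With the F test the same 6 genes differed between organs, where 34.7% of all genes did. Of the tests between pairs of organs 22 passed, of which Hfe, Ftl1 and Slc11a2 gave those without liver. The shares of all genes called in either direction were 11.8% between liver and kidney, 16.7% between liver and heart, 26.3% between liver and brain, 9.71% between kidney and heart, 10.9% between kidney and brain and 21.1% between heart and brain. Fth1 passed only between liver and brain (0.79, adjusted p = 0.0299) and Ftl1 only between heart and brain (0.82, adjusted p = 0.0262). The Fth1 call was lost without brain Frozen (0.39) or liver Frozen (0.36), and the Ftl1 call without brain Frozen (0.44) or heart Frozen (0.53).

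Brain had 4 of 10 genes called lower, namely Hfe, Fth1, Slc40a1 and Slc11a2, where 13.6% of all genes were called lower. Without brain Frozen only Hfe of the 4 passed, with Slc40a1 at -0.68 (adjusted p = 0.170) and Slc11a2 at -0.64 (adjusted p = 0.191). For brain the mean of the other organs holds liver, and only Hfe of the 4 was lower than both heart and kidney in the pairwise tests. Slc40a1 and Fth1 passed against neither (limma adjusted p of 0.0621 to 0.947), and Slc11a2 against kidney but not heart (adjusted p = 0.0142 and 0.794). Heart had 5 called lower, Hamp, Tfr2, Trf, Slc40a1 and Slc11a2, where 7.31% of all genes were, and kidney 2, Tfr2 and Trf, where 2.03% were. The mean of the other organs holds liver in these contrasts, and none of these 5 genes was lower in heart than in brain or kidney in the pairwise tests, except Slc11a2 against kidney. Without heart Frozen none of the 5 passed (-0.53 to -0.68), and Hamp in heart also missed the threshold without kidney Frozen (-1.28, adjusted p = 0.0542). Without kidney FFPE or kidney Frozen neither Tfr2 (-1.20 and -0.78) nor Trf (-1.23 and -0.73) passed in kidney, and Trf missed it without liver Frozen too (-0.78).

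Over the 4 organs 1 of the 10 genes, Hamp2, was called higher in FFPE than in Frozen tissue, where 2.0% of all genes were called higher, and none was called lower. Ftl1 came closest among the rest, at -0.63 ± 0.19 (log2, SE) with limma adjusted p = 0.0525. It was -0.82 without brain FFPE (adjusted p = 0.00361) and -0.82 without brain Frozen (adjusted p = 0.00355). The mice behind FFPE and Frozen tissue are not given, so mice and preservation cannot be told apart.

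Within liver, FFPE values were below Frozen values for most of the genes that mark the organ. The FFPE to Frozen ratio was 0.564 for Tfr2 (0.498 to 0.639, exact 95% counting interval), 0.592 for Trf (0.524 to 0.667), 0.629 for Slc40a1 (0.557 to 0.710) and 0.606 for Slc11a2 (0.541 to 0.677). Fth1 had 0.480 (0.414 to 0.556) and Ftl1 0.511 (0.431 to 0.603). Hamp, at 0.785 (0.612 to 1.00), Tfrc, at 1.10 (0.935 to 1.28), and Hfe, at 1.20 (1.02 to 1.40), had intervals that reached or lay above 1. Over all genes with at least 40 counts in the pair 51.2% were lower in liver FFPE. Liver had 6 intervals below 1 and 2 above it, kidney 2 and 2, heart 3 and 3, and brain 1 (Hfe) and 2. Of all genes with at least 40 counts in the pair, 32.9% lay below 1 and 24.6% above it in liver, 18.9% and 21.0% in kidney, 32.6% and 18.4% in heart, and 14.5% and 17.5% in brain. These intervals cover counting error only and have no replicate behind them.

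The liver difference within each preservation followed from these values. It was 2.11 in FFPE and 3.20 in Frozen tissue for Hamp (log2), 1.57 and 2.34 for Tfr2, 1.77 and 2.97 for Trf, 1.38 and 1.95 for Slc40a1, and 0.73 and 1.59 for Slc11a2. Hfe went the other way, with 1.44 in FFPE and 1.10 in Frozen tissue. A smaller difference in FFPE was general, as it held for 87.6% of the 3019 genes called higher in liver, with medians of 0.90 in FFPE and 1.36 in Frozen tissue. The spread over genes was also wider in liver Frozen, with an SD of 2.39 log2 units, than in liver FFPE, with 2.05, and its part in the difference was not tested.

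**Figure D3:**
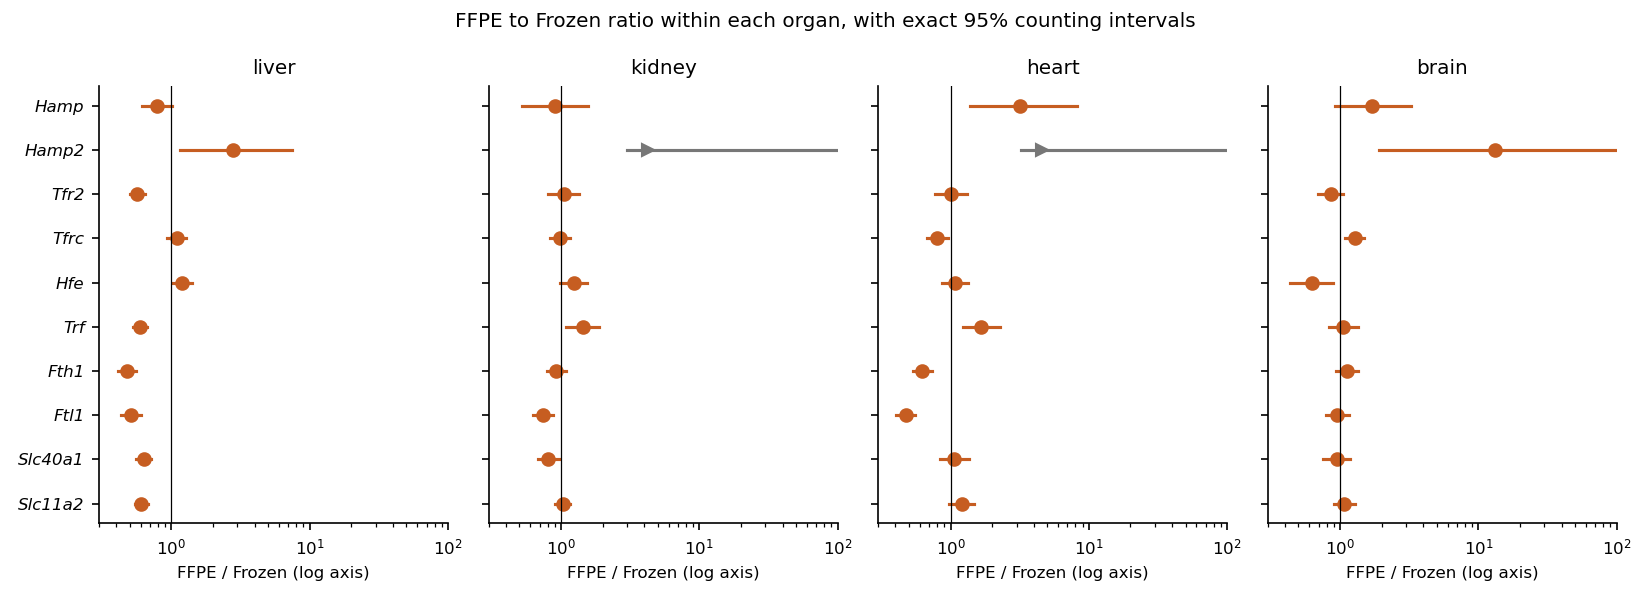
Ratio of FFPE to Frozen (x axis, log scale) for the 10 genes within each organ, with exact 95% counting intervals; arrows mark Hamp2 bounds where the Frozen library had 0 counts. In liver 6 genes lie wholly below 1, and Hamp2 lies above 1 in every organ.

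Other genes of iron and heme handling were read from a list grouped by role, of which 75 of 79 genes were measured. In liver 25 of the 75 were called higher and 2 lower, where 11.2% and 9.73% of all genes were. The median liver difference was 0.40 (log2), against -0.06 over all genes. Without liver Frozen 11 were called higher and none lower. In brain 25 of 75 were lower and 3 higher, where 13.6% and 8.73% of all genes were, and without brain Frozen 11 were lower. Without the variance trend 12 were higher in liver and 9 lower in brain, and with scaling to the total count 16 were lower in brain. The largest brain difference was that of Hp, at -1.86 ± 0.29 (log2, SE; limma adjusted p = 1.42e-05), against a mean that holds liver. Hp in brain did not pass the test against heart or kidney (adjusted p = 0.177 and 0.416).

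Regulators of hepcidin were called higher in liver for 6 of 19 genes, where 11.2% of all genes were, and none was lower. Hjv, the BMP co-receptor hemojuvelin, stood at 6.69 log2 CPM in liver FFPE and 7.71 in liver Frozen, against 3.23 to 4.95 elsewhere, and was higher in liver by 3.13 ± 0.24 (log2, SE; limma adjusted p = 1.14e-11). Fgl1, a secreted hepatocyte protein, was higher by 1.80 ± 0.29, Tmprss6, the protease that cleaves hemojuvelin, by 1.54 ± 0.22, and the BMP ligand gene Bmp2 by 0.74 ± 0.27. The Bmp2 call was lost without any 1 of 7 libraries (0.63 to 0.85), heart FFPE being the exception. Bmp6, a further ligand known from liver endothelium, was not higher in liver (-0.34 ± 0.24) and was higher in heart by 1.00 ± 0.24, which missed the threshold without heart FFPE (0.85) or heart Frozen (1.15). Id1, a target of BMP signalling, was higher in heart by 1.42 ± 0.23, with 1.01 and adjusted p = 0.0717 without heart Frozen, and lower in brain by -1.40 ± 0.23. Endothelial markers, 4 genes, summed to 564.6 and 538 CPM in heart FFPE and Frozen, against 170 to 333.5 CPM elsewhere, and their part in these heart values was not tested. Smad6, an inhibitor of the same pathway, was lower in brain by -1.68 ± 0.22, and Hjv was lower in brain by -1.31 ± 0.24 and in kidney by -1.86 ± 0.24. For Hjv the mean of the other organs holds liver in both contrasts. In the pairwise tests Hjv did not differ between kidney and brain (-0.41), and it was higher in heart than in brain (1.01). It was also lower in kidney than in heart (-1.42). The heart to brain call was lost without brain Frozen (0.69), heart FFPE (0.85) or heart Frozen (1.17).

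Genes of heme synthesis were called higher in liver for 6 of 9 members, and those of heme and hemoglobin handling for 4 of 12. None was lower, and 11.2% of all genes were called higher in liver. Of these calls, Alad, Ppox and Fech of heme synthesis and Lrp1 of heme handling missed the threshold without heart FFPE (0.62, 0.60, 0.62 and 0.73). Ppox also missed it without brain FFPE (0.50). Hp, which encodes haptoglobin, the plasma protein that binds hemoglobin, was at 6.60 and 7.46 log2 CPM in liver FFPE and Frozen, against 2.29 to 3.71 elsewhere, a difference of 3.90 ± 0.29 (log2, SE; limma adjusted p = 6.07e-12). Hpx, the heme carrier hemopexin, was higher in liver by 2.64 ± 0.31. Alas2, the erythroid form of the first enzyme of heme synthesis, was higher by 2.38 ± 0.34, and Alas1, the form of other tissues, by 1.36 ± 0.21. Alas2 is itself 1 of the 6 measured erythroid markers, whose sums in liver are given above beside Tfrc. Among the 3 genes called lower in FFPE than in Frozen tissue, Uros and Cpox belong to heme synthesis, at -0.93 ± 0.19 and -0.79 ± 0.20, and Hmox2, a heme oxygenase, was at -0.71 ± 0.20. Across all genes 1.91% were called lower in FFPE. Cpox missed the threshold without any 1 of the 4 libraries of liver and kidney (-0.53 to -0.75), and Hmox2 without any 1 of the 6 libraries of liver, kidney and heart (-0.53 to -0.75).

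Among further roles, iron reduction and oxidation had 3 of 8 genes higher in liver, among them Cp, which encodes ceruloplasmin, the plasma ferroxidase, by 1.37 ± 0.21 (log2, SE). Other transport and chaperone genes had 4 of 11 higher and 2 lower, and iron regulatory proteins and their control 1 of 4 higher, Aco1. Iron-sulfur cluster assembly had 1 of 12 higher in liver, a call lost without kidney Frozen or liver Frozen, and 4 of 12 lower in brain. Over all genes 11.2% were called higher and 9.73% lower in liver, and 13.6% lower in brain. The iron-sulfur share in liver, 8.33%, was thus below that of all genes. The transport genes called lower, Meltf and Ltf, missed the threshold without liver Frozen (-0.74 and -0.33). For Meltf the mean of the other organs holds brain, and liver was not separated from heart or kidney (limma adjusted p = 0.356 and 0.237). Meltf, which encodes melanotransferrin, was the 1 transport gene called higher in brain, by 1.73 ± 0.23, at 6.25 log2 CPM in brain FFPE and 6.45 in brain Frozen against 4.08 to 4.88 elsewhere. In kidney Steap2, a metalloreductase gene, was higher by 0.76 ± 0.21, and Steap4, Tmprss6 and Hp were lower by -0.93 ± 0.25, -0.95 ± 0.22 and -1.11 ± 0.29. For the 3 lower genes the mean of the other organs holds liver. None of them passed the limma test between kidney and brain or between kidney and heart (adjusted p of 0.0554 to 0.882). These 4 kidney calls were each lost without kidney FFPE or kidney Frozen (0.95 and 0.58 for Steap2, -0.91 and -0.95 for Steap4, -0.94 and -0.97 for Tmprss6, -1.18 and -1.03 for Hp). Steap2 also missed it without heart Frozen (0.68), Steap4 without heart FFPE (-0.86), and Hp without heart FFPE (-0.89) or liver Frozen (-0.99). In heart 7 of the 75 genes were higher and 6 lower, where 9.42% and 7.31% of all genes were, and in kidney 2 were higher and 4 lower, where 3.19% and 2.03% were. The heart counts turned to 1 higher and 14 lower with scaling to the total count, to 1 and 0 without the variance trend, and to 0 and 1 without heart Frozen. In kidney they were 0 and 0 without the variance trend, and 0 and 1 without either kidney library. In heart Hpx, Alas2 and Hp were called lower, at -1.12 ± 0.31, -1.10 ± 0.34 and -0.94 ± 0.29, against a mean that holds liver. None of these 3 passed the test between heart and brain or between kidney and heart, and Hp stood higher in heart than in brain (0.69 ± 0.36, adjusted p = 0.177). Of these Hpx missed the threshold without heart FFPE (-0.59) or kidney FFPE (-0.87), and Hp without heart Frozen (-0.31), kidney FFPE (-0.92) or liver Frozen (-0.82). Alas2 in heart missed it without any 1 of 5 libraries (-1.17 without heart Frozen, and smaller differences without brain Frozen, heart FFPE, kidney FFPE or liver FFPE).

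**Figure D4:**
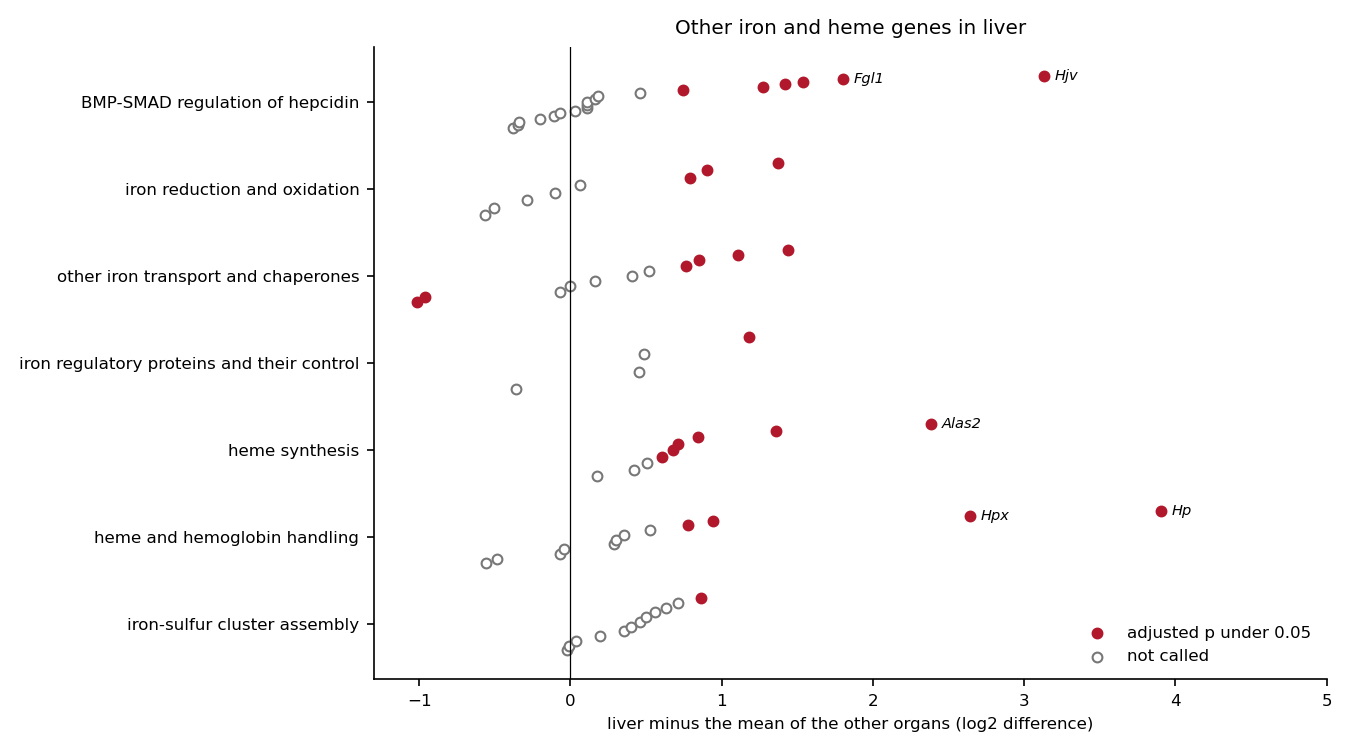
Liver minus the mean of the other organs (x axis, log2 difference) for 75 iron and heme genes in rows by role, filled where limma adjusted p is under 0.05. Hp at 3.90, Hjv at 3.13, Hpx at 2.64 and Alas2 at 2.38 lie farthest to the right. The 2 transport genes called lower are Ltf and Meltf, the latter against a mean that holds its high brain values.

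The genes next to Hamp and Trf on the chromosome were also read. Usf2, which encodes an E-box transcription factor and lies 1218 bases from Hamp, was higher in liver by 1.28 ± 0.22 (log2, SE; limma adjusted p = 5.06e-05), with 6.77 and 7.83 log2 CPM in liver FFPE and Frozen against 5.51 to 6.92 elsewhere. On the other side of Hamp2 lies the myelin gene Mag, which did not differ in liver (-0.20 ± 0.29). Of the neighbours of Trf, 1300017J02Rik was higher in liver by 1.85 ± 0.26 and Srprb was not (0.21 ± 0.22). H1f2, a histone gene next to Hfe, was lower in brain by -1.52 ± 0.22, as Hfe was, and was not called in liver (0.35 ± 0.22). Mospd3 next to Tfr2 was not called in liver either (0.52 ± 0.23), while Tnk2, a kinase gene next to Tfrc, was higher in liver by 0.68 ± 0.21 (adjusted p = 0.0151).

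For the 7 genes whose 8 values spanned at least 2 log2 units, the most similar profiles among 19934 genes with a mean of at least 40 counts were listed by Pearson correlation over the 8 libraries. These correlations are descriptions over 8 points that share organ and preservation. Hamp was closest to the complement gene C9 (0.994), Cyp3a13 (0.992) and Bmp2 (0.988). The profiles most like Trf included 4933417D19Rik (0.995) and Serpind1 (0.994), and those most like Tfr2 included Gm8378 (0.996) and Qpct (0.990). Slc40a1 was closest to Ccdc162, Mbl1 and Ugt1a9 (0.992 to 0.994). Hfe was closest to Angpt4, Rpl13a and Gstm2 (0.979 to 0.984) and Slc11a2 to Mtfr1, Gm17753 and Kng2 (0.988 to 0.989). Hamp2, whose profile follows preservation, was closest to Nsd1, Tmem69 and Klhl28 (0.957 to 0.971). Among the 10 genes themselves Tfr2 and Trf were the most alike (0.969), then Hamp and Trf (0.931), Slc40a1 and Slc11a2 (0.922), Hamp and Slc40a1 (0.917) and the ferritin genes Fth1 and Ftl1 (0.915).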

How the data were processed

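The submitters' processing notes name Bowtie2, featureCounts and limma, and build mm10. They give no versions, and the counted part of a gene and any merging of replicates are not stated. The deposited values are log2 CPM. With 0.5 added to each count and the effective library sizes the authors set (0.749 to 1.22 times the total), 100% of the values in each column came out as whole counts to within 0.001. The labels tie replicates to ChIP runs and name alternative library kits, neither of which can be matched to columns. Genes at 0 in all libraries, 235, were removed. Organ and preservation were fitted together by limma 3.58.1 under R 4.3.3, with moderated variances that follow a trend on mean level, two-sided, and the fit was checked on simulated data. Genes, lists and tests were chosen with earlier results of these data known. For each contrast the up to 5 called pathway genes with the largest difference are named. Further pathway genes illustrate a role and were chosen after their values were seen. A few genes that these rules would name are not reported here. Count ratios carry Clopper-Pearson 95% intervals. Gene positions come from RefSeq, GRCm38.p6. The alternatives were 8 other settings and the omission of each of 8 libraries.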

Additional observations from a re-analysis of the deposited data

Results flagged for a closer look

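Trf, Hfe and Tfrc moved in opposite directions between FFPE and Frozen tissue in different organs, with counting intervals on opposite sides of 1. For Trf the FFPE to Frozen ratio was 1.67 in heart (1.23 to 2.27) and 1.43 in kidney (1.09 to 1.89), and 0.592 in liver (0.524 to 0.667). For Hfe it was 1.20 in liver (1.02 to 1.40) and 0.625 in brain (0.435 to 0.889). For Tfrc it was 1.28 in brain (1.09 to 1.5) and 0.804 in heart (0.673 to 0.960). With 1 library for each organ and preservation the difference between organs was not tested, and the intervals cover counting error only. Groups of 1 library could not be searched for outlying samples.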

How the results depend on the processing

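No paired analysis was possible because the columns carry no replicate number. No called difference changed sign in any alternative run. Liver calls of Hamp, Tfr2, Hfe, Trf and Slc40a1 held in all of them. Of the 10 genes, the main setting called 4 for brain, 5 for heart, 2 for kidney and 1 for FFPE against Frozen, with 22 calls between pairs of organs. Scaling to the total count gave 1 in brain (Hfe) and 2 in FFPE, and put the median difference of all genes at 0.27 (brain), -0.37 (heart), 0.12 (kidney), -0.11 (liver) and -0.14 (FFPE). Under it 3404 genes were higher and 1710 lower in brain, against 2353 and 3677, and 449 higher and 1448 lower in FFPE, against 539 and 515. Without a variance trend 1 gene was called in brain, 0 in heart, 0 in kidney and 14 pairs. A mean of at least 10 counts removed Hamp2 and left 0 in FFPE, no filter gave 1 in kidney, and an offset of 2 counts gave 2 in FFPE. Quantile normalization and an equal median and spread each gave 4 in brain, 4 in heart, 3 in kidney, 7 in liver and 1 in FFPE, with 21 and 22 pairs. They ended Hamp in heart (adjusted p = 0.0674 and 0.0501), Fth1 in brain, Fth1 between liver and brain (0.133 and 0.0685) and Ftl1 between heart and brain (0.0804 and 0.0787). Array weights ended no call of the 10 genes. Leaving out single libraries gave 5 to 8 calls in liver, 1 to 6 in brain, 0 to 6 in heart, 0 to 2 in kidney, 1 to 3 in FFPE, 17 to 24 pairs and 6 to 8 genes by the F test. Here the remaining library of an organ was assumed to vary like the others. The cause of these changes was not tested. Hamp and Hamp2 are limited by depth, with 8 to 32 counts outside liver for Hamp and at most 18 in any library for Hamp2.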
